A study of Homo sapiens and Mus musculus with 12 samples.

Results

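Autophagy genes were described here: 39 genes that build the autophagosome or select its cargo, found by gene symbol in the human and mouse count files and followed with and without ponatinib, a multi-targeted tyrosine kinase inhibitor. Membership was set by name and role, and the rule uses no measured value. The list was nonetheless chosen with earlier results of these data known. The 39 symbols were found among 63677 listed genes in the human line and, as the mouse genes of the same symbol, among 47729 in the mouse line. They fall into 6 roles, with 5 genes of initiation, 6 of nucleation, 6 of membrane supply, 10 of conjugation, 5 ubiquitin-like modifiers and 7 cargo receptors.

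RNA was sequenced from 2 wild-type breast cancer cell lines, MDA-MB-231 (human, established from a triple-negative tumor) and 4T1 (mouse, a mammary carcinoma line). Each line was given 1 µM ponatinib, or the solvent DMSO as control, for 24 h. There were 3 libraries in each of the 4 groups, 12 in all. The question was which genes responded to the drug in each line, and here, how the autophagy genes did. Each model is 1 cell line grown in culture, with no other cells present by design, and the labels do not say whether the 3 libraries of a group came from separate cultures, so p-values measure only the spread between these libraries. Lower RNA of a gene in the whole culture cannot be told apart from fewer cells that express it.

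Macroautophagy encloses cytoplasm in a double membrane and delivers it to the lysosome. A kinase complex around ULK1 starts the process, a lipid kinase complex around PIK3C3 and BECN1 marks the membrane with the lipid PI3P, and enzymes that resemble the ubiquitin cascade attach LC3 and GABARAP proteins to the growing membrane. Receptors such as SQSTM1 bind both cargo and LC3 or GABARAP, and mTORC1 restrains the whole pathway when nutrients are plentiful. Messenger RNA levels are not a measure of autophagic flux.

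Short stretches of promoter are given for 2 genes, ULK1 and ATG3, because the calls for both ran in opposite directions in the 2 lines. Human sequence came from RefSeq promoter windows on build GRCh38.p14 and mouse sequence from the GRCm39 genome at the start of the Ensembl canonical transcript. ULK1 is shown by its 250 bases before the start site used and ATG3 by its last 30, since the annotated ATG3 gene begins upstream of that site in both species. Both ATG3 stretches therefore still lie inside the annotated gene. The annotated mouse Ulk1 gene also reaches upstream of the site used, to base 110957995, so the end of its stretch overlaps the gene. Capitals mark any match to a searched motif.
Human ULK1, chr12:131894372-131894621, plus strand: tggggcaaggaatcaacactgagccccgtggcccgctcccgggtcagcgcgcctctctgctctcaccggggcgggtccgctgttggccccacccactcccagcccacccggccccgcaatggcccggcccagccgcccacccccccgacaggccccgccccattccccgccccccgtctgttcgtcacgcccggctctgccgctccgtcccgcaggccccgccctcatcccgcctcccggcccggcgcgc
Mouse Ulk1, chr5:110957985-110958234, minus strand: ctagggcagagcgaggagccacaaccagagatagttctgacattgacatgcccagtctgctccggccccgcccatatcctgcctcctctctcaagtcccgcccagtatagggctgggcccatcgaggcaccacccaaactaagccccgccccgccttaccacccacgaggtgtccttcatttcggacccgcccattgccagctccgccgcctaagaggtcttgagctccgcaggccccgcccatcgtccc
Human ATG3, chr3:112561963-112561992, minus strand: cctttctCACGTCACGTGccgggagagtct
Mouse Atg3, chr16:44978989-44979018, plus strand: agagcagcctgagcggccattgcgcaggcg
Guanine and cytosine made up 78.0% of the human ULK1 stretch and 64.0% of the mouse one. The capitals in human ATG3 cover CACGTG, the E-box, which starts 18 bases before the start site, and 3 matches to ACGTG, the core of the hypoxia response element, counted on either strand, of which the last 2 overlap. No searched motif occurs in the other 3 stretches.

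Promoter windows of 300 bases (250 before and 50 after the start) were searched on both strands for 6 motifs linked to factors that act on autophagy genes. Of the 39 symbols, 33 had a human window, and RB1CC1, UVRAG, ATG4D, MAP1LC3A, CALCOCO1 and BNIP3L did not, while all 39 had a mouse window. The CLEAR core TCACGTGA, the lysosomal element bound by TFEB, was found in 1 of the 33 human members, ATG3, where it starts at base 5 after the start site, and in 0.980% of all 35116 human windows. It was found in no mouse member and in 1.11% of all 21770 mouse windows. The E-box CACGTG, which the CLEAR core contains, was present in 3 human members (ATG14, ATG3 and BNIP3) against 7.26% of all human windows, and in 4 mouse members (Atg14, Atg5, Bnip3 and Gabarap) against 7.81% of all mouse windows. The forkhead motif GTAAACA was in 0 human members and in 1 mouse member, Becn1, against 3.42% and 3.15% of all windows. The composite ATF4 and CHOP motif TGATGNAA was in no member of either species, against 3.62% and 3.84% of all windows. TGACNNNGC, the antioxidant response element read by NRF2, was in 2 human members (ATG101 and MAP1LC3B) and in 5 mouse members (Atg12, Atg13, Bnip3l, Sqstm1 and Vmp1), against 13.3% and 12.5% of all windows. The core ACGTG, which also lies inside the E-box, was in 12 human (36.4%) and 13 mouse (33.3%) members, against 21.4% and 20.7% of all windows. A member was counted when any of its windows matched, while the shares of all windows count single windows. Some human members, such as SQSTM1, ATG5 and WIPI2, had several windows, so the human values are not like for like. These matches describe letters only.

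Total counts ranged from 15012884 to 17301760 per library for the human line, with 4T1 between 17800675 and 18951493. Levels are given as CPM, counts scaled to a common library total with TMM factors, and differences as log2 fold changes of ponatinib against DMSO with their standard errors (SE). A gene was called when its Benjamini-Hochberg adjusted p from edgeR's quasi-likelihood test across all genes was under 0.05. Keratins marked both lines, with mean KRT8 of 890 CPM in MDA-MB-231 with DMSO and 2389 CPM for Krt8 in 4T1. CDH1 was at or near 0 in MDA-MB-231, and PTPRC and PECAM1 were at 0 there. Of 3 receptors that triple-negative tumors are said to lack, ESR1 and PGR were near the floor in MDA-MB-231. Their means with DMSO were 0.0635 and 0.643 CPM. ERBB2 was at 98.1 CPM there with DMSO and 172 CPM with ponatinib. In 4T1, Pgr was at 0 and Erbb2 at 91.9 CPM with DMSO and 95.4 CPM with ponatinib. Esr1 rose in 4T1 from a mean of 3.41 to 6.33 CPM (adjusted p = 0.00119). Among marker genes of other cell types, PDGFRB rose in MDA-MB-231 from 0.199 to 0.712 CPM up to 8.35 to 10.7 CPM, and CSF1R from 0.503 to 0.907 CPM up to 1.53 to 2.23 CPM. In 4T1, Cd14 fell from 222 to 249 CPM down to 137 to 155 CPM, Kdr from 2.39 to 4.54 CPM down to 0.596 to 1.24 CPM, and Pdgfrb from 0.656 to 0.794 CPM to 0 in all ponatinib libraries. The 4 fibroblast and pericyte markers summed to 1.53 to 1.76 CPM with DMSO and 9.17 to 12.3 CPM with ponatinib in MDA-MB-231, where DCN and LUM were at or near 0. In 4T1 the same 4 summed to 0.656 to 0.794 CPM and then 0 to 0.207 CPM, with Dcn and Lum at 0, and the 3 endothelial markers to 2.89 to 5.03 CPM and then 0.868 to 1.45 CPM. Cd3e was at 0 in 4T1. Their part in the results was not tested.

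In MDA-MB-231, 13 members rose and 5 fell with ponatinib, and in 4T1, 9 rose and 15 fell. The members that moved most in MDA-MB-231 were the receptors CALCOCO1 and OPTN, the kinase ULK1 and the modifier GABARAPL1, all upward, while in 4T1 the PI3P reader Wipi2, the receptor Sqstm1 and the activating enzyme Atg7 fell most. MAP1LC3A was too low in MDA-MB-231 to be tested, which left 38 members there and 39 in 4T1. The rises were 34.2% of the tested members in MDA-MB-231, where 27.2% of all 14610 tested genes rose, and the falls 13.2%, where 26.8% of all genes fell. In 4T1 the rises were 23.1% of members against 29.5% of all 13286 genes, and the falls 38.5% against 29.4%. The median log2 fold change of the members was 0.03 in MDA-MB-231, with 0.02 over all genes, and -0.13 in 4T1, with 0.00 over all genes. Sizes were modest, with a median absolute log2 fold change of 0.23 in each line against 0.42 (MDA-MB-231) and 0.39 (4T1) over all genes.

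Libraries of the treatments did not overlap for 23 of the 38 members in MDA-MB-231 (60.5%, with 60.4% of all genes) and for 23 of the 39 in 4T1 (59.0%, with 63.4% of all genes). By a fold of 1.5 with an unadjusted P under 0.05, 4 members rose and 1 fell in MDA-MB-231, where 19.3% of all genes rose and 14.5% fell. By the same rule 1 member rose and 3 fell in 4T1, where 18.4% of all genes rose and 13.1% fell. Treating same-numbered libraries as pairs gave 15 rises and 11 falls among the members in MDA-MB-231, and 9 rises and 17 falls in 4T1. Over all genes, pairing gave 4802 rises and 4873 falls in MDA-MB-231, in place of 3975 and 3918. In 4T1 it gave 4310 rises and 4310 falls over all genes, in place of 3925 and 3909. Without TMM factors, scaling by total counts brought the median over every tested gene to 0.11 for the human line and 0.12 for the mouse line, gave 4854 rises and 2935 falls over all genes in 4T1 in place of 3925 and 3909, and left 3 falling members in MDA-MB-231 and 9 in 4T1.

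Pairing the libraries by number, which also added calls over all genes, cost no call of a member, and 10 more member values passed. In MDA-MB-231 these were ATG101 (-0.25 log2, adjusted p = 0.00316), BECN1 (-0.17, adjusted p = 0.0301), ATG4D (-0.20, adjusted p = 0.0296), ATG12 (-0.18, adjusted p = 0.0339), MAP1LC3B (-0.20, adjusted p = 0.00124) and BNIP3 (-0.18, adjusted p = 0.00245), all lower, and ATG9A (0.18, adjusted p = 0.00113) and TAX1BP1 (0.17, adjusted p = 0.00558), both higher. In 4T1 these were Atg9a (-0.20, adjusted p = 0.0314) and Gabarapl2 (-0.18, adjusted p = 0.0365), both lower. Scaling to total counts ended the calls of VMP1 (-0.12 log2) and BNIP3L (-0.12) in MDA-MB-231, and of Ambra1 (-0.11), Atg2b (-0.10), Vmp1 (-0.15), Atg4b (-0.14), Atg12 (-0.15) and Nbr1 (-0.08) in 4T1, and kept the sign of each. It added calls for ATG9A (0.28, adjusted p = 0.0115) and TAX1BP1 (0.26, adjusted p = 0.0393) in MDA-MB-231 and for Becn1 (0.26, adjusted p = 0.00612) and Uvrag (0.28, adjusted p = 0.00657) in 4T1, all higher. DESeq2 did not call ATG13 (adjusted p = 0.0614), PIK3C3 (0.0857), WIPI1 (0.0852) and BNIP3L (0.0579) in MDA-MB-231, nor Pik3r4 (0.0917) and Atg4a (0.0924) in 4T1.

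**Figure D1:**
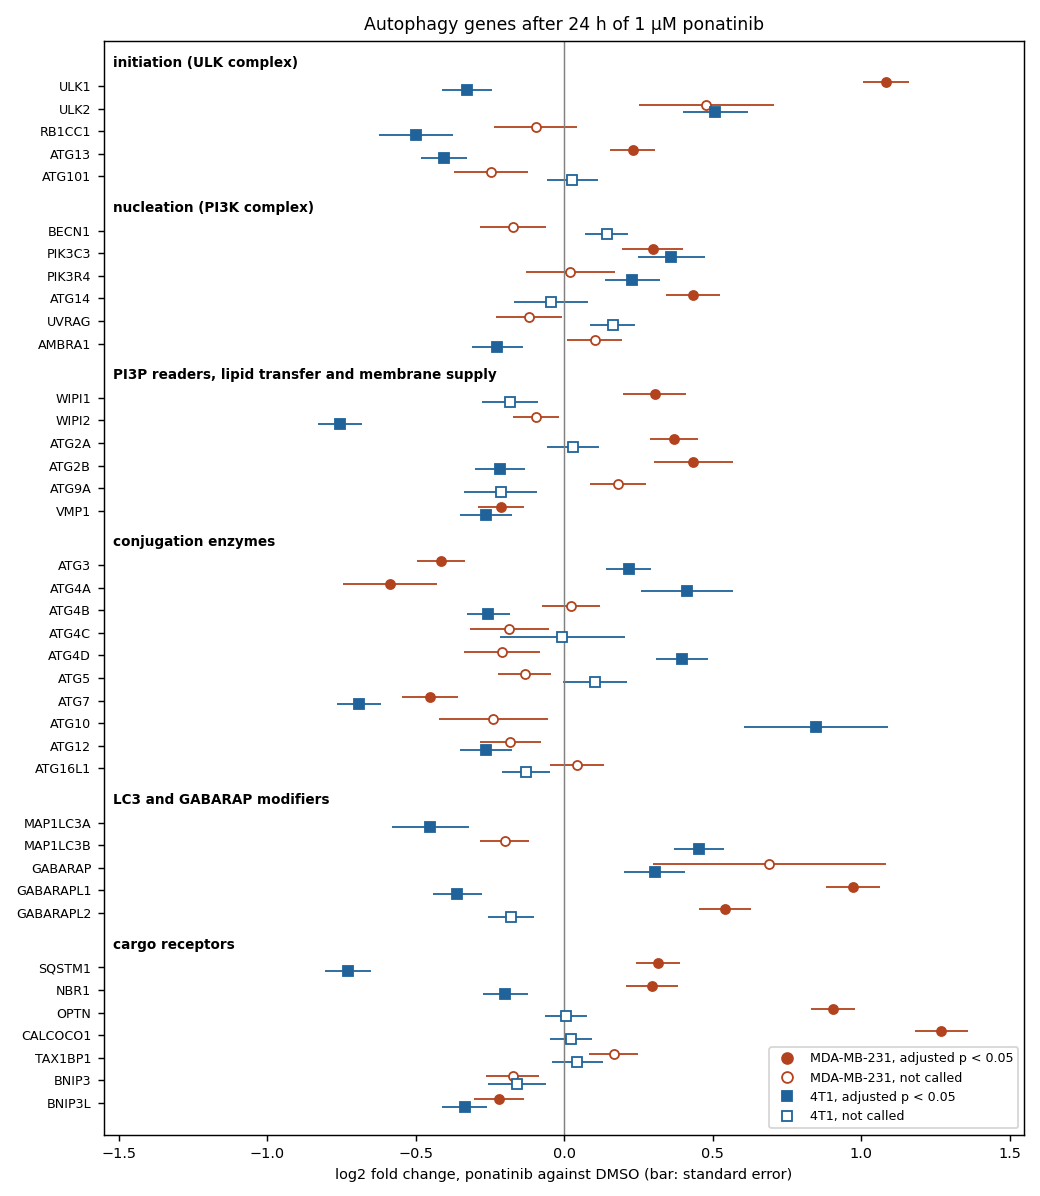
Log2 fold change of ponatinib against DMSO for each of the 39 members, grouped by role, with bars for the standard error. Circles are MDA-MB-231 and squares 4T1, filled where the adjusted p was under 0.05. CALCOCO1 in MDA-MB-231 lies farthest to the right at 1.27 and Wipi2 in 4T1 farthest to the left at -0.75.

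Of the 5 genes of the initiation complex, ULK1 and ATG13 rose in MDA-MB-231 and none fell, whereas in 4T1 Ulk1, Rb1cc1 and Atg13 fell and Ulk2 rose. ULK1 (ENSG00000177169) is the kinase that starts autophagy and had a 2.12-fold higher level with ponatinib in the human line. In MDA-MB-231, the ULK1 libraries held 35.6, 34.7 and 36.1 CPM with DMSO and 74.0, 75.2 and 76.5 CPM with ponatinib. All ponatinib libraries lay above all DMSO libraries, a log2 fold change of 1.08 ± 0.08 (SE, adjusted p = 6.02e-07). With DMSO, Ulk1 stood at 58.7, 51.7 and 50.9 CPM in 4T1, and with ponatinib at 43.2, 42.4 and 43.1 CPM. Here the order was the reverse, with each ponatinib library below each DMSO library and a log2 fold change of -0.33 ± 0.08 (SE, adjusted p = 0.00383). Ulk2, the related kinase, went the other way from Ulk1 in 4T1. Ulk2 in 4T1 was at 12.4, 14.0 and 13.5 CPM with DMSO and at 18.5, 18.7 and 19.6 CPM with ponatinib. The groups did not overlap, and the log2 fold change was 0.51 ± 0.11 (SE, adjusted p = 0.00105). ULK2 in MDA-MB-231 was low, between 2.40 and 4.38 CPM, and did not pass (0.48 ± 0.23 log2, SE, adjusted p = 0.0949). Per kilobase of exon, Ulk1 made up 82.5% ± 1.91 of the summed level of both kinases with DMSO in 4T1 and 72.7% ± 0.591 with ponatinib (SD, n = 3 each), without overlap. In MDA-MB-231 the ULK1 share was 94.8% ± 0.243 and 96.6% ± 0.705, also without overlap.

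ATG13, the adaptor that links the kinases to the scaffold, had opposite calls as well. In MDA-MB-231, the ATG13 libraries held 92.7, 86.9 and 89.5 CPM with DMSO and 108, 109 and 98.9 CPM with ponatinib. The rise was small, 0.23 ± 0.08 log2 (SE, adjusted p = 0.023), and every ponatinib library lay above every DMSO library. With DMSO, Atg13 stood at 89.6, 84.8 and 82.2 CPM in 4T1, and with ponatinib at 60.7, 66.4 and 66.7 CPM. It fell with a log2 fold change of -0.41 ± 0.08 (SE, adjusted p = 0.000386), again without overlap. Atg13 shares 32.8% of its exon bases with the opposite-strand gene Arhgap1, and whether counting used strand is not given in the sources used here. Rb1cc1 in 4T1 was at 35.8, 41.1 and 43.9 CPM with DMSO and at 25.5, 34.5 and 25.5 CPM with ponatinib. Rb1cc1, the scaffold also called FIP200, thus fell in 4T1 (-0.50 ± 0.12 log2, SE, adjusted p = 0.0029), and its highest ponatinib library was still below the lowest DMSO library. RB1CC1 in MDA-MB-231 gave -0.10 ± 0.14 log2 (SE, adjusted p = 0.584) and did not pass. ATG101, which stabilizes ATG13, did not pass in either line (-0.25 ± 0.12 log2, SE, adjusted p = 0.115 in MDA-MB-231 and 0.03 ± 0.09 log2, SE, adjusted p = 0.804 in 4T1). The ATG13 call in MDA-MB-231 was lost without DMSO replicate 2 or 3 or ponatinib replicate 2 (log2 fold change 0.20 to 0.22).

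In the nucleation complex, PIK3C3, the lipid kinase that makes PI3P, rose in both lines, and its subunit BECN1 was called in neither by TMM scaling without pairs. In MDA-MB-231, the PIK3C3 libraries held 22.1, 22.2 and 21.9 CPM with DMSO and 24.4, 27.3 and 29.6 CPM with ponatinib. The log2 fold change was 0.30 ± 0.10 (SE, adjusted p = 0.0265) and the groups did not overlap, with a DMSO SD of 0.160 CPM. With DMSO, Pik3c3 stood at 13.8, 16.1 and 17.2 CPM in 4T1, and with ponatinib at 19.8, 20.1 and 20.5 CPM. The change there was 0.36 ± 0.11 log2 (SE, adjusted p = 0.0133), and the test of the difference between the lines gave -0.01 ± 0.15 log2 (4T1 minus MDA-MB-231, adjusted p = 1.00). Pik3r4, the regulatory subunit, rose in 4T1 by a small amount. Pik3r4 in 4T1 was at 27.3, 26.2 and 29.3 CPM with DMSO and at 32.5, 32.3 and 32.2 CPM with ponatinib. Its groups did not overlap, with a log2 fold change of 0.23 ± 0.09 (SE, adjusted p = 0.0426), and PIK3R4 in MDA-MB-231 gave 0.02 ± 0.15 log2 (SE, adjusted p = 0.916).

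ATG14, the subunit that directs the complex to autophagy, rose in MDA-MB-231 (0.43 ± 0.09 log2, SE, adjusted p = 0.00159), from a mean of 24.8 ± 0.892 to 33.5 ± 1.37 CPM (SD, n = 3 each), and gave -0.04 ± 0.12 log2 (SE, adjusted p = 0.778) in 4T1. Human ATG14 shares 20.8% of its exon bases with the opposite-strand gene FBXO34, which had a mean of 590.7 counts. Ambra1, a scaffold of the complex, fell in 4T1 (-0.22 ± 0.09 log2, SE, adjusted p = 0.0384) with groups that overlapped, and AMBRA1 gave 0.10 ± 0.09 log2 (SE, adjusted p = 0.365) in MDA-MB-231. BECN1 gave -0.17 ± 0.11 log2 (SE, adjusted p = 0.206) in MDA-MB-231 and 0.14 ± 0.07 log2 (SE, adjusted p = 0.103) in 4T1. UVRAG, a BECN1 partner in endosome traffic, gave -0.12 ± 0.11 log2 (SE, adjusted p = 0.396) and 0.16 ± 0.08 log2 (SE, adjusted p = 0.0797). The PIK3C3 call in MDA-MB-231 was lost without DMSO replicate 1, 2 or 3 or ponatinib replicate 2 or 3 (log2 fold change 0.23 to 0.29), the Pik3c3 call in 4T1 without DMSO replicate 1 (log2 fold change 0.27), the Pik3r4 call without DMSO replicate 1 or 2 or ponatinib replicate 1, 2 or 3 (log2 fold change 0.19 to 0.23), and the Ambra1 call without DMSO replicate 1 or 2 or ponatinib replicate 2 or 3 (log2 fold change -0.16 to -0.21).

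Among the PI3P readers, lipid transfer proteins and membrane suppliers, WIPI1, ATG2A and ATG2B rose and VMP1 fell in MDA-MB-231, while none rose and Wipi2, Atg2b and Vmp1 fell in 4T1. Wipi2 reads PI3P and recruits the conjugation machinery. In 4T1, the Wipi2 libraries held 245, 217 and 220.3 CPM with DMSO and 138, 131 and 136 CPM with ponatinib. The DMSO libraries were far above the ponatinib libraries, and the fall of -0.75 ± 0.07 log2 (SE, adjusted p = 8.34e-07) was the largest of the members in 4T1. WIPI2 in MDA-MB-231 ranged from 156 to 183 CPM with groups that overlapped (-0.10 ± 0.08 log2, SE, adjusted p = 0.319). The test of the difference between the lines gave -0.73 ± 0.11 log2 (adjusted p = 1.86e-05). WIPI1, its close relative, rose in MDA-MB-231 (0.31 ± 0.11 log2, SE, adjusted p = 0.0298) and gave -0.18 ± 0.09 log2 (SE, adjusted p = 0.108) in 4T1. Human WIPI1 shares 24.4% of its exon bases with the opposite-strand gene ARSG. Within 4T1, the summed level of both WIPI genes per kilobase was 26.6 ± 1.37 RPKM with DMSO and 17.4 ± 0.602 RPKM with ponatinib (SD, n = 3 each), without overlap.

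ATG2B, which moves lipid into the growing membrane, had opposite calls. With DMSO, ATG2B stood at 12.1, 15.3 and 15.2 CPM in MDA-MB-231, and with ponatinib at 17.6, 18.1 and 21.7 CPM. Each ponatinib library was above each DMSO library, with a log2 fold change of 0.44 ± 0.13 (SE, adjusted p = 0.0154). Atg2b in 4T1 was at 112, 126 and 109 CPM with DMSO and at 109.5, 95.0 and 93.6 CPM with ponatinib. The groups overlapped in 4T1, where the first ponatinib library was above the third DMSO library, and the log2 fold change was -0.22 ± 0.08 (SE, adjusted p = 0.0394). ATG2A, which has the same role, rose in MDA-MB-231 (0.37 ± 0.08 log2, SE, adjusted p = 0.00223), from 155 ± 11.9 to 200.4 ± 10.2 CPM (SD, n = 3 each), and gave 0.03 ± 0.09 log2 (SE, adjusted p = 0.787) in 4T1.

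VMP1, a membrane protein of the endoplasmic reticulum needed for autophagosome formation, fell in both lines. In MDA-MB-231, the VMP1 libraries held 109, 125 and 115 CPM with DMSO and 98.4, 103 and 99.9 CPM with ponatinib. The groups did not overlap and the log2 fold change was -0.21 ± 0.08 (SE, adjusted p = 0.0365). In 4T1 the Vmp1 groups overlapped, with means of 217 ± 22.7 CPM (DMSO) and 181 ± 14.6 CPM (ponatinib, SD, n = 3 each), and the change was -0.26 ± 0.09 log2 (SE, adjusted p = 0.0194). ATG9A, the scramblase of the seed vesicles, passed in neither line (0.18 ± 0.09 log2, SE, adjusted p = 0.125 in MDA-MB-231 and -0.21 ± 0.12 log2, SE, adjusted p = 0.151 in 4T1). Human ATG9A shares 38.8% of its exon bases, on the same strand, with ENSG00000284820, which is absent from the counts. Mouse Atg9a shares 25.2% with Gm29253 on the same strand, listed at 0 counts, and 12.7% with Ankzf1 on the opposite strand. How reads common to these genes were counted is not given in the sources used here. The WIPI1 call was lost without DMSO replicate 1, 2 or 3 or ponatinib replicate 2 or 3 (log2 fold change 0.25 to 0.33), the ATG2B call without DMSO replicate 1 or ponatinib replicate 3 (log2 fold change 0.32 to 0.33) and, in 4T1, without DMSO replicate 2 or ponatinib replicate 2 or 3 (log2 fold change -0.15 to -0.18), and the VMP1 call without DMSO replicate 2 or 3 or ponatinib replicate 1, 2 or 3 (log2 fold change -0.17 to -0.23) and, in 4T1, without DMSO replicate 2 or 3 or ponatinib replicate 1 or 3 (log2 fold change -0.21 to -0.26).

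No conjugation enzyme rose in MDA-MB-231, where ATG3, ATG4A and ATG7 fell, and in 4T1 Atg3, Atg4a, Atg4d and Atg10 rose while Atg4b, Atg7 and Atg12 fell. ATG7 is the activating enzyme of both conjugation branches and fell in both lines. With DMSO, ATG7 stood at 33.8, 33.3 and 34.2 CPM in MDA-MB-231, and with ponatinib at 22.8, 24.5 and 26.7 CPM. The groups were well apart, with a log2 fold change of -0.45 ± 0.09 (SE, adjusted p = 0.00168). Human ATG7 shares 18.1% of its exon bases with the opposite-strand gene VGLL4. Atg7 in 4T1 was at 100.1, 92.2 and 92.1 CPM with DMSO and at 57.8, 60.9 and 57.4 CPM with ponatinib. The fall in 4T1 was -0.69 ± 0.08 log2 (SE, adjusted p = 2.34e-06), and the difference between the lines was -0.31 ± 0.12 log2 (adjusted p = 0.0380). That difference was lost without any 1 library other than MDA-MB-231 ponatinib replicate 1 (-0.22 to -0.32). ATG3, the conjugating enzyme that transfers LC3 to lipid, was called in opposite directions. In MDA-MB-231, the ATG3 libraries held 56.4, 60.7 and 55.7 CPM with DMSO and 43.0, 44.1 and 42.6 CPM with ponatinib. All ponatinib libraries were lower, a log2 fold change of -0.41 ± 0.08 (SE, adjusted p = 0.00107). With DMSO, Atg3 stood at 64.4, 62.9 and 60.3 CPM in 4T1, and with ponatinib at 75.6, 73.3 and 69.2 CPM. All ponatinib libraries were higher in 4T1, a log2 fold change of 0.22 ± 0.08 (SE, adjusted p = 0.0225).

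ATG4A, a protease that trims modifiers before conjugation, was low in both lines and also had opposite calls. ATG4A in MDA-MB-231 was at 9.55, 8.29 and 7.36 CPM with DMSO and at 5.36, 6.18 and 5.26 CPM with ponatinib. It fell (-0.59 ± 0.16 log2, SE, adjusted p = 0.00807) without overlap. In 4T1, the Atg4a libraries held 5.56, 6.34 and 7.49 CPM with DMSO and 8.90, 9.45 and 7.48 CPM with ponatinib. In 4T1 the lowest ponatinib library lay just under the highest DMSO library, and the change was 0.41 ± 0.16 log2 (SE, adjusted p = 0.0331). Atg4d, another protease of the family, rose in 4T1. With DMSO, Atg4d stood at 38.7, 33.2 and 37.8 CPM in 4T1, and with ponatinib at 47.7, 46.8 and 50.05 CPM. The groups did not overlap, with a change of 0.40 ± 0.09 log2 (SE, adjusted p = 0.00128). Atg4d shares 30.2% of its exon bases with Kri1 on the opposite strand. ATG4D in MDA-MB-231 gave -0.21 ± 0.13 log2 (SE, adjusted p = 0.191), and ATG4C gave -0.18 ± 0.13 log2 (SE, adjusted p = 0.259) there and -0.0064 ± 0.21 log2 (SE, adjusted p = 0.983) in 4T1.

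Atg4b, the main protease of the family by level, fell in 4T1 (-0.26 ± 0.07 log2, SE, adjusted p = 0.00725) and gave 0.02 ± 0.10 log2 (SE, adjusted p = 0.861) in MDA-MB-231. Per kilobase, Atg4b made up 64.5% ± 1.67 of the summed ATG4 level with DMSO in 4T1 and 53.9% ± 1.13 with ponatinib, and Atg4d 25.7% ± 1.14 and 33.8% ± 0.839 (SD, n = 3 each), both without overlap. Atg10, which conjugates Atg12, had the largest log2 rise of the members in 4T1, 0.85 ± 0.24 log2 (SE, adjusted p = 0.00754), at a level of 1.39 to 3.15 CPM, and ATG10 gave -0.24 ± 0.19 log2 (SE, adjusted p = 0.299) in MDA-MB-231. Mouse Atg10 held only 25 to 61 counts per library. It shares 2.67% of its exon bases with the opposite-strand gene Rps23, which had a mean of 20969.7 counts. The part of Rps23 reads in this level was not tested. Atg12, the modifier joined to Atg5, fell in 4T1 (-0.26 ± 0.09 log2, SE, adjusted p = 0.0186) with groups that overlapped, and ATG12 gave -0.18 ± 0.10 log2 (SE, adjusted p = 0.156) in MDA-MB-231. ATG5 gave -0.13 ± 0.09 log2 (SE, adjusted p = 0.222) and 0.11 ± 0.11 log2 (SE, adjusted p = 0.423), and ATG16L1, which completes that complex, gave 0.04 ± 0.09 log2 (SE, adjusted p = 0.701) and -0.13 ± 0.08 log2 (SE, adjusted p = 0.189), in MDA-MB-231 and 4T1. In 4T1 the Atg3 call was lost without DMSO replicate 3 or ponatinib replicate 1 or 2 (log2 fold change 0.19 to 0.22), the Atg4a call without DMSO replicate 1 or 2 or ponatinib replicate 1 or 2 (log2 fold change 0.31 to 0.40), the Atg4b call without ponatinib replicate 2 (log2 fold change -0.22), and the Atg12 call without DMSO replicate 2 or 3 or ponatinib replicate 1 or 3 (log2 fold change -0.21 to -0.25).

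GABARAPL1 and GABARAPL2 rose in MDA-MB-231, and in 4T1 Map1lc3b and Gabarap rose while Map1lc3a and Gabarapl1 fell. These small ubiquitin-like proteins are the labels placed on the autophagosome membrane. GABARAPL1 in MDA-MB-231 was at 22.2, 23.4 and 24.1 CPM with DMSO and at 44.98, 43.3 and 48.5 CPM with ponatinib. The ponatinib libraries sat far above the DMSO libraries, a log2 fold change of 0.97 ± 0.09 (SE, adjusted p = 4.09e-06). In 4T1, the Gabarapl1 libraries held 77.0, 88.8 and 86.8 CPM with DMSO and 63.0, 64.1 and 69.8 CPM with ponatinib. In 4T1 all ponatinib libraries were below all DMSO libraries (-0.36 ± 0.08 log2, SE, adjusted p = 0.00163), and the difference between the lines was -1.40 ± 0.12 log2 (adjusted p = 4.38e-08). With DMSO, GABARAPL2 stood at 33.1, 29.1 and 33.0 CPM in MDA-MB-231, and with ponatinib at 45.9, 47.2 and 45.4 CPM. The groups did not overlap and the change was 0.54 ± 0.09 log2 (SE, adjusted p = 0.00031). Gabarapl2 in 4T1 was at 59.8, 56.3 and 56.4 CPM with DMSO and at 51.6, 49.8 and 51.0 CPM with ponatinib. Here the ponatinib libraries were all lower, but the change of -0.18 ± 0.08 log2 (SE, adjusted p = 0.0577) did not pass.

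MAP1LC3B encodes LC3B, the modifier most often used to follow autophagosomes. In MDA-MB-231, the MAP1LC3B libraries held 99.0, 103 and 99.1 CPM with DMSO and 88.5, 94.5 and 79.5 CPM with ponatinib. All ponatinib libraries were lower, and the change of -0.20 ± 0.08 log2 (SE, adjusted p = 0.0599) did not pass. With DMSO, Map1lc3b stood at 141, 113 and 119 CPM in 4T1, and with ponatinib at 171, 168 and 173 CPM. In 4T1 it rose without overlap (0.46 ± 0.08 log2, SE, adjusted p = 0.000316), and the difference between the lines was 0.58 ± 0.12 log2 (adjusted p = 0.000759). Map1lc3a in 4T1 was at 24.7, 18.3 and 21.2 CPM with DMSO and at 14.4, 14.9 and 17.7 CPM with ponatinib. Map1lc3a fell (-0.45 ± 0.13 log2, SE, adjusted p = 0.00841), with the DMSO libraries all higher. In MDA-MB-231, the MAP1LC3A libraries held 0.133, 0.259 and 0.252 CPM with DMSO and 0.252, 0.0637 and 0 CPM with ponatinib. At 0 to 4 counts per library no difference was detectable at this depth.

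GABARAP, the founding member of its subfamily, ranked 2 of 39 by level per kilobase in 4T1 with DMSO and 37 of 39 in MDA-MB-231. With DMSO, Gabarap stood at 165, 189.8 and 204 CPM in 4T1, and with ponatinib at 194, 245 and 251 CPM. The first ponatinib library lay among the DMSO libraries, and the change was 0.31 ± 0.10 log2 (SE, adjusted p = 0.0186). GABARAP in MDA-MB-231 was at 0.862, 1.62 and 0.629 CPM with DMSO and at 2.33, 1.40 and 1.31 CPM with ponatinib. The groups overlapped and the change, 0.69 ± 0.39 log2 (SE, adjusted p = 0.156), did not pass, but it was 1.16 log2 (adjusted p = 0.0453) without DMSO replicate 2. Human GABARAP shares 35.4% of its exon bases, on the same strand, with the annotated coding gene ENSG00000262526, which is listed at 0 counts, and how reads common to both were counted is not given in the sources used here, so this low level is uncertain. The Gabarap call was lost without DMSO replicate 1 or ponatinib replicate 2 or 3 (log2 fold change 0.22 to 0.26).

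Per kilobase of exon, the 5 modifiers summed to 36.9 ± 0.238 RPKM with DMSO and 44.9 ± 1.25 RPKM with ponatinib in MDA-MB-231, and to 151 ± 6.94 and 166 ± 15.4 RPKM in 4T1 (SD, n = 3 each). With the summed exon length, the human groups did not overlap and the mouse groups did. The human sum and all human shares include GABARAP, at 1.44% of the sum with DMSO, whose low level is uncertain as stated above. They would change if its reads were undercounted, which was not tested. Within that sum the MAP1LC3B share went from 54.0% ± 1.25 to 38.6% ± 2.32 and the GABARAPL1 share from 15.5% ± 0.562 to 25.1% ± 2.18 in MDA-MB-231, both without overlap. In 4T1 the Gabarap share went from 54.5% ± 3.60 to 61.4% ± 2.96 and the Gabarapl1 share from 15.1% ± 0.859 to 10.8% ± 0.682, both without overlap. The shares and sums depend on the gene length used, and with the length of the canonical transcript, an alternative chosen after seeing the data, the DMSO share of Map1lc3b in 4T1 was 39.7% in place of 10.9% and that of Gabarap 30.04%. With that length the Gabarap groups overlapped, with a share of 31.9% ± 2.88 with ponatinib, the Map1lc3b share was higher with ponatinib without overlap (47.2% ± 2.39), and the summed level in 4T1 did not overlap either (352 ± 11.4 and 407 ± 21.1 RPKM, SD, n = 3 each).

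**Figure D2:**
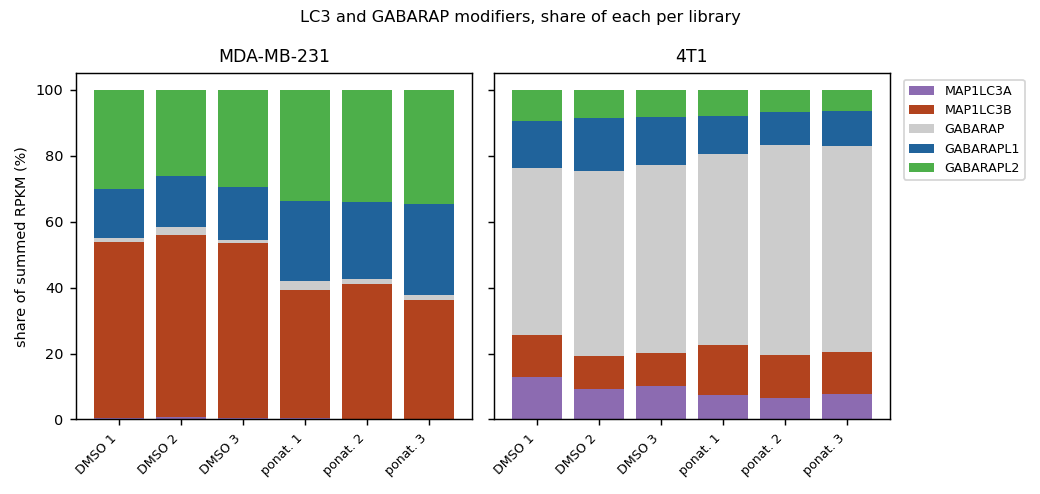
Share of each LC3 and GABARAP modifier, in percent of the summed RPKM of the 5 genes, in each of the 6 libraries of MDA-MB-231 (left) and 4T1 (right), with RPKM per kilobase of all annotated exons. The MAP1LC3B band narrows from 54.0% to 38.6% on average with ponatinib in MDA-MB-231, and the Gabarap band is the widest in every 4T1 library. The human GABARAP level is uncertain, and with it the human shares.

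Of the 7 cargo receptors, SQSTM1, NBR1, OPTN and CALCOCO1 rose and BNIP3L fell in MDA-MB-231, whereas none rose and Sqstm1, Nbr1 and Bnip3l fell in 4T1. SQSTM1 (ENSG00000161011), also called p62, is the receptor for ubiquitin-tagged cargo and is itself degraded by autophagy. In MDA-MB-231, the SQSTM1 libraries held 488, 483 and 518 CPM with DMSO and 584, 618 and 653 CPM with ponatinib. Every ponatinib library was above every DMSO library, a log2 fold change of 0.32 ± 0.07 (SE, adjusted p = 0.00359). With DMSO, Sqstm1 stood at 3352, 3003 and 3163 CPM in 4T1, and with ponatinib at 1929, 1885 and 1934 CPM. In 4T1 the ponatinib libraries lay close together and far below the DMSO libraries, with a change of -0.73 ± 0.08 log2 (SE, adjusted p = 2.13e-06), and the difference between the lines was -1.12 ± 0.11 log2 (adjusted p = 2.10e-07). SQSTM1 was the member with the highest level per kilobase in both lines with DMSO, 65.9 RPKM in MDA-MB-231 and 387 RPKM in 4T1. It shares 21.0% of its exon bases with the opposite-strand gene MRNIP in human and 17.2% with Mrnip in mouse.

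NBR1, a receptor built like SQSTM1, was called in the same direction as SQSTM1 in each line. NBR1 in MDA-MB-231 was at 80.3, 97.8 and 92.9 CPM with DMSO and at 108, 110.3 and 115 CPM with ponatinib. The rise was 0.30 ± 0.09 log2 (SE, adjusted p = 0.0124), without overlap. In 4T1, the Nbr1 libraries held 182, 198 and 186 CPM with DMSO and 167, 173 and 152 CPM with ponatinib. The fall in 4T1 was -0.20 ± 0.08 log2 (SE, adjusted p = 0.0344), also without overlap. CALCOCO1, a receptor for the endoplasmic reticulum and the Golgi, had the largest change of the members in MDA-MB-231. With DMSO, CALCOCO1 stood at 31.7, 32.5 and 31.2 CPM in MDA-MB-231, and with ponatinib at 71.4, 74.7 and 84.1 CPM. The ponatinib libraries were all above the highest DMSO library, with a log2 fold change of 1.27 ± 0.09 (SE, adjusted p = 5.06e-07). Calcoco1 in 4T1 stayed between 86.8 and 94.2 CPM (0.02 ± 0.07 log2, SE, adjusted p = 0.801), and the difference between the lines was -1.32 ± 0.11 log2 (adjusted p = 2.53e-08).

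OPTN, a receptor for damaged mitochondria and bacteria, rose in MDA-MB-231. OPTN in MDA-MB-231 was at 106, 105 and 98.6 CPM with DMSO and at 186, 198 and 197 CPM with ponatinib. The groups did not overlap and the change was 0.91 ± 0.07 log2 (SE, adjusted p = 1.36e-06). Optn in 4T1 stayed between 87.7 and 91.5 CPM (0.0066 ± 0.07 log2, SE, adjusted p = 0.944), and the difference between the lines was -0.97 ± 0.10 log2 (adjusted p = 2.14e-07). TAX1BP1, a receptor related in function, passed in neither line (0.17 ± 0.08 log2, SE, adjusted p = 0.107 in MDA-MB-231 and 0.04 ± 0.09 log2, SE, adjusted p = 0.679 in 4T1).

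BNIP3 and BNIP3L are receptors in the outer mitochondrial membrane, both known as hypoxia-induced genes. In MDA-MB-231, the BNIP3 libraries held 120.4, 131 and 126 CPM with DMSO and 98.5, 118 and 118 CPM with ponatinib. All ponatinib libraries were lower, but the change of -0.17 ± 0.09 log2 (SE, adjusted p = 0.117) did not pass. With DMSO, Bnip3 stood at 82.2, 79.0 and 104 CPM in 4T1, and with ponatinib at 76.8, 82.9 and 77.6 CPM. The groups overlapped in 4T1, with the third DMSO library highest, and the change was -0.16 ± 0.10 log2 (SE, adjusted p = 0.174). BNIP3L fell in both lines. BNIP3L in MDA-MB-231 was at 57.5, 64.9 and 64.7 CPM with DMSO and at 51.8, 56.3 and 52.7 CPM with ponatinib. The change was -0.22 ± 0.08 log2 (SE, adjusted p = 0.0462), without overlap. In 4T1, the Bnip3l libraries held 82.0, 80.4 and 87.8 CPM with DMSO and 64.9, 69.6 and 63.8 CPM with ponatinib. In 4T1 it was -0.34 ± 0.08 log2 (SE, adjusted p = 0.00163), without overlap, and the difference between the lines was -0.19 ± 0.11 log2 (adjusted p = 0.205). The BNIP3L call in MDA-MB-231 was lost without DMSO replicate 2 or 3 or ponatinib replicate 1, 2 or 3 (log2 fold change -0.20 to -0.26), and the Nbr1 call in 4T1 without DMSO replicate 2 or 3 or ponatinib replicate 1 or 3 (log2 fold change -0.14 to -0.21).

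Set side by side, 8 members were called in opposite directions in the lines and 4 in the same direction. Of the 38 tested in both, 8 (21.1%) were called in opposite directions, where 10.6% of all 9842 genes tested in both lines were, and 4 (10.5%) were called in the same direction, where 27.2% of all were. ULK1, ATG13, ATG2B, GABARAPL1, SQSTM1 and NBR1 rose in MDA-MB-231 and fell in 4T1, and ATG3 and ATG4A did the reverse. PIK3C3 rose in both lines, and VMP1, ATG7 and BNIP3L fell in both. The sign was the same for 16 of the 38 (42.1%), with 61.2% over all genes. Across the 38 members the Pearson correlation of the log2 fold changes was -0.11, and across all 9842 genes 0.28, as descriptions over genes, which are not independent and share the libraries of each line.

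A test of the difference between the lines, fitted over all genes that share a symbol, was passed by 22 of the 39 members (56.4%) against 41.9% of all 12488 genes. The 39 include MAP1LC3A, which was too low to be tested within MDA-MB-231 and gave 0.53 ± 0.88 log2 here (SE, adjusted p = 0.655). Among the 8 opposite pairs, ULK1 had the largest difference, -1.48 ± 0.11 log2 (4T1 minus MDA-MB-231, adjusted p = 5.74e-09). ATG2B gave -0.72 ± 0.15 log2 (adjusted p = 0.000854), ATG13 gave -0.71 ± 0.11 log2 (adjusted p = 2.77e-05) and NBR1 gave -0.57 ± 0.12 log2 (adjusted p = 0.000609). The reverse pairs gave 0.93 ± 0.23 for ATG4A (adjusted p = 0.00255) and 0.56 ± 0.11 for ATG3 (adjusted p = 0.000357). The calls of ULK1, GABARAPL1 and SQSTM1 were opposite under all 18 alternatives, and the number of opposite members fell to 5 without 4T1 DMSO replicate 2, 4T1 ponatinib replicate 1 or 4T1 ponatinib replicate 2. With the replicate block it rose to 12, the same 8 and ATG4D, ATG9A, GABARAPL2 and MAP1LC3B.

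**Figure D3:**
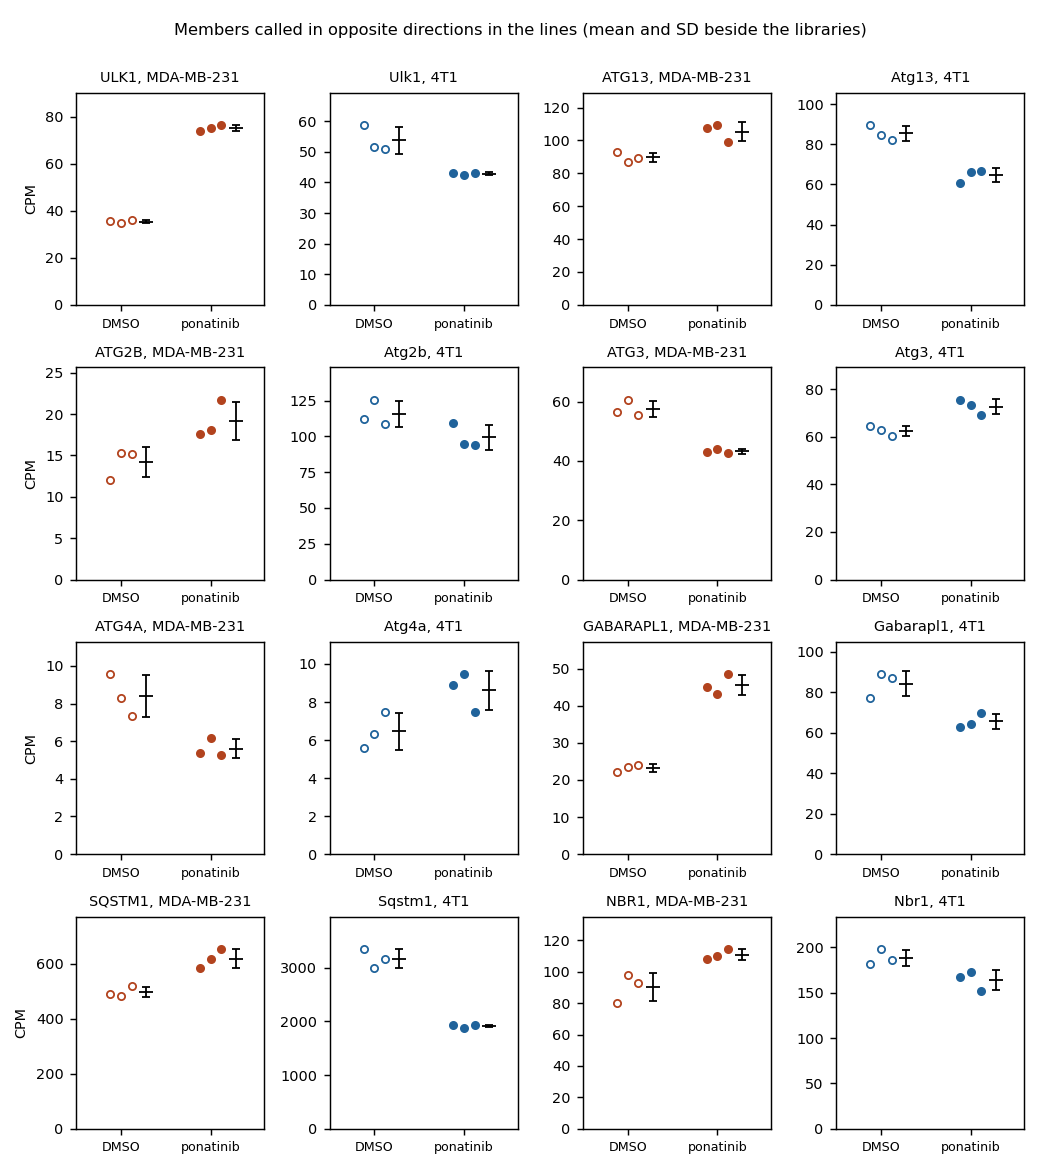
CPM of the 8 members called in opposite directions, in each DMSO library (open) and ponatinib library (filled) of MDA-MB-231 and 4T1, with the group mean and SD in black beside the points and every axis starting at 0. ULK1 rises from 34.7 to 36.1 CPM up to 74.0 to 76.5 CPM in MDA-MB-231 and falls in 4T1, while ATG3 and ATG4A show the reverse order.

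**Figure D4:**
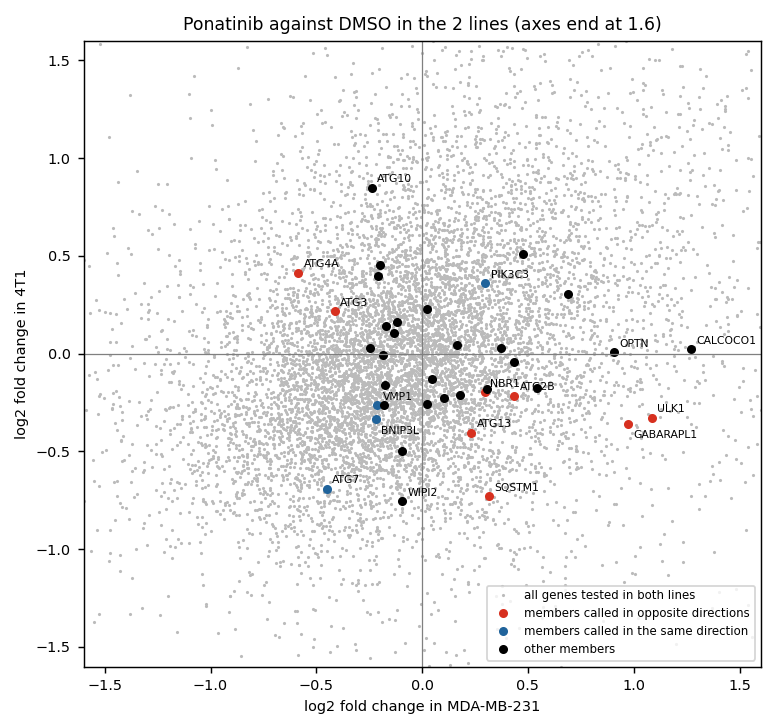
Log2 fold change in 4T1 against that in MDA-MB-231 for the genes tested in both lines (grey) and the 38 members (colored by call), with axes that end at 1.6. The 6 members that rose in MDA-MB-231 and fell in 4T1 lie at the lower right, ATG3 and ATG4A at the upper left, and CALCOCO1 and OPTN near 0 on the 4T1 axis.

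Other genes of the pathway, 80 in 6 lists, were counted in the same fits. In MDA-MB-231, 77 were tested, 31 (40.3%) rose and 13 (16.9%) fell, where 27.2% and 26.8% of all genes did, and their log2 fold changes had a median of 0.16. In 4T1, 70 were tested, 19 (27.1%) rose and 21 (30%) fell, where 29.5% and 29.4% of all genes did, with a median of -0.02. The genes named are those with the largest called changes in each list, leaving out genes whose group means were both under 10 CPM.

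Of 19 genes that control autophagy through mTORC1 and AMPK, 6 rose and 3 fell in MDA-MB-231, and 5 rose and 5 fell in 4T1. In MDA-MB-231 that was 31.6% rising and 15.8% falling, against 27.2% and 26.8% of all genes. In 4T1 it was 26.3% each, against 29.5% and 29.4% of all genes. DDIT4, also called REDD1, restrains mTORC1 and had the largest change of the list in MDA-MB-231. With DMSO, DDIT4 stood at 8.42, 10.9 and 13.5 CPM in MDA-MB-231, and with ponatinib at 175, 184 and 217 CPM. The groups were far apart, with a log2 fold change of 4.13 ± 0.15 (SE, adjusted p = 4.17e-09). Ddit4 in 4T1 was at 485, 416 and 443 CPM with DMSO and at 298, 249 and 254 CPM with ponatinib. In 4T1 it fell without overlap (-0.75 ± 0.09 log2, SE, adjusted p = 5.08e-06), and the difference between the lines was -4.95 ± 0.18 log2 (adjusted p = 3.41e-13). SESN3, a sestrin that restrains mTORC1, rose in MDA-MB-231 (2.24 ± 0.18 log2, SE, adjusted p = 1.27e-06), as did TSC1, of the complex that inhibits RHEB (0.71 ± 0.09 log2, SE, adjusted p = 4.68e-05). In 4T1 Prkag2, a regulatory subunit of AMPK, rose (1.36 ± 0.14 log2, SE, adjusted p = 1.18e-06) and Rheb, the direct activator of mTORC1, fell (-0.55 ± 0.07 log2, SE, adjusted p = 1.43e-05).

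Of 11 transcription factors known to act on autophagy genes, 6 rose and 1 fell in MDA-MB-231, and 2 rose and 5 fell in 4T1. In MDA-MB-231 that was 54.5% rising and 9.09% falling, against 27.2% and 26.8% of all genes. In 4T1 it was 18.2% and 45.5%, against 29.5% and 29.4% of all genes. TFEB, the factor that reads the CLEAR element, rose in both lines. In MDA-MB-231, the TFEB libraries held 7.76, 6.54 and 5.98 CPM with DMSO and 16.4, 16.5 and 14.8 CPM with ponatinib. The log2 fold change was 1.23 ± 0.14 (SE, adjusted p = 1.5e-05), without overlap. With DMSO, Tfeb stood at 12.7, 10.2 and 12.7 CPM in 4T1, and with ponatinib at 30.4, 30.4 and 31.1 CPM. The change was 1.36 ± 0.11 log2 (SE, adjusted p = 1.5e-07), and the difference between the lines was 0.06 ± 0.18 log2 (adjusted p = 0.866). FOXO4 rose in MDA-MB-231 (1.47 ± 0.13 log2, SE, adjusted p = 3.44e-06), as did DDIT3, the stress factor CHOP (1.496 ± 0.18 log2, SE, adjusted p = 2.5e-05). Foxo1 fell in 4T1 (-0.59 ± 0.09 log2, SE, adjusted p = 4.29e-05), as did Hif1a, the hypoxia factor (-0.45 ± 0.09 log2, SE, adjusted p = 0.000449). FOXO1 and ATF4, chosen after their values were seen, had opposite calls, with 0.96 ± 0.15 log2 (SE, adjusted p = 0.000173) and 0.39 ± 0.08 log2 (SE, adjusted p = 0.000995) in MDA-MB-231 and, for Atf4, -0.32 ± 0.08 log2 (SE, adjusted p = 0.00336) in 4T1.

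**Figure D5:**
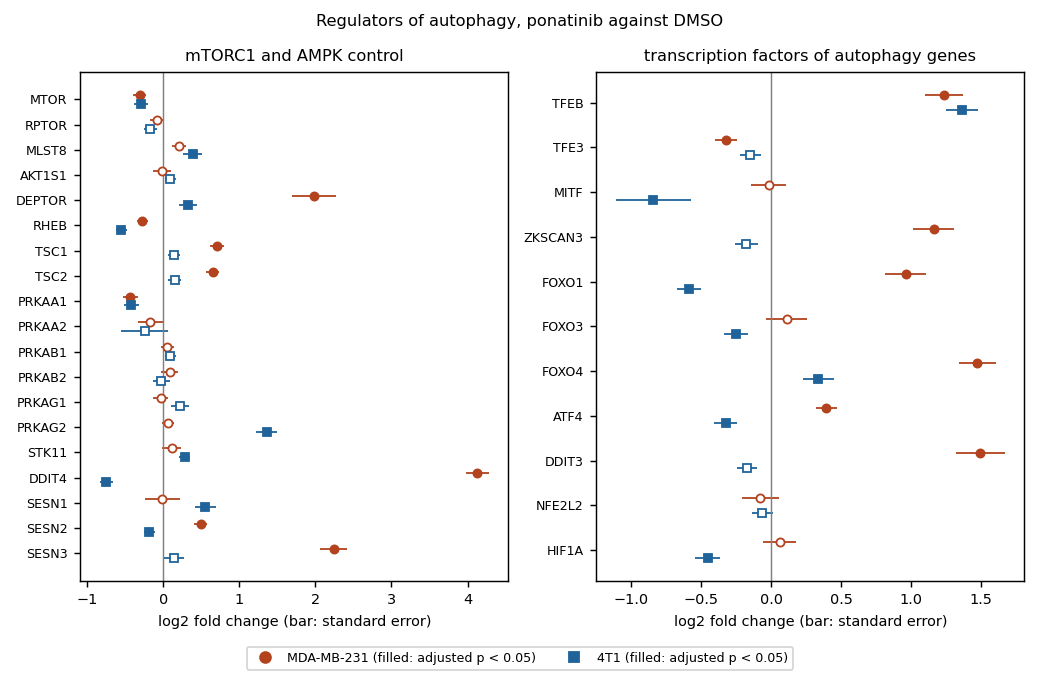
Log2 fold change, with bars for the standard error, of 19 genes of mTORC1 and AMPK control (left) and 11 transcription factors (right), as circles for MDA-MB-231 and squares for 4T1, filled where the adjusted p was under 0.05. DDIT4 stands at 4.13 for MDA-MB-231 and at -0.75 for 4T1, and both TFEB points lie above 1.2.

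Of 14 genes of autophagosome-lysosome fusion, all were tested in MDA-MB-231, where 5 rose and 2 fell, and 13 in 4T1, where 6 rose and 2 fell. In MDA-MB-231 that was 35.7% rising and 14.3% falling, against 27.2% and 26.8% of all genes. In 4T1 it was 46.2% and 15.4%, against 29.5% and 29.4% of all genes. VPS41, a subunit of the HOPS tether, rose in MDA-MB-231 (0.82 ± 0.10 log2, SE, adjusted p = 2.38e-05), as did VPS39 of the same complex (1.03 ± 0.09 log2, SE, adjusted p = 1.86e-06) and TECPR1, an autophagosome tether (0.62 ± 0.10 log2, SE, adjusted p = 0.000256). Vps41 rose in 4T1 (1.15 ± 0.08 log2, SE, adjusted p = 1.54e-08), as did Vps33a, another HOPS subunit (0.59 ± 0.08 log2, SE, adjusted p = 3.17e-05), and Epg5, also a tether, fell (-1.15 ± 0.09 log2, SE, adjusted p = 4.85e-08). Of 14 further receptors, 5 of 13 tested rose and 3 fell in MDA-MB-231, and 3 of 12 rose and 3 fell in 4T1. Beside the same shares of all genes, that was 38.5% rising and 23.1% falling in MDA-MB-231, and 25% each in 4T1. TEX264, a receptor for the endoplasmic reticulum, rose in MDA-MB-231 (0.52 ± 0.09 log2, SE, adjusted p = 0.000583) and in 4T1 (0.75 ± 0.08 log2, SE, adjusted p = 2.78e-06), as did FKBP8, a mitochondrial receptor (0.62 ± 0.12 log2, SE, adjusted p = 0.0011, then 0.43 ± 0.09 log2, SE, adjusted p = 0.00084). TOLLIP rose in MDA-MB-231 (0.42 ± 0.08 log2, SE, adjusted p = 0.00111) and Retreg1, also called Fam134b, fell in 4T1 (-0.67 ± 0.08 log2, SE, adjusted p = 7.68e-06).

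Of 12 further core genes, 10 were tested in each line, with 3 rises and 3 falls in MDA-MB-231 and 1 rise and 5 falls in 4T1. In MDA-MB-231 that was 30% each, against 27.2% rising and 26.8% falling over all genes. In 4T1 it was 10% rising and 50% falling, against 29.5% and 29.4% of all genes. ZFYVE1, a PI3P-binding protein of the nascent autophagosome, rose in MDA-MB-231 (0.83 ± 0.10 log2, SE, adjusted p = 2.76e-05). NRBF2, a subunit of the PIK3C3 complex, fell there (-0.57 ± 0.11 log2, SE, adjusted p = 0.00104), as did RUBCN, which inhibits that complex (-0.39 ± 0.09 log2, SE, adjusted p = 0.00298). In 4T1 Wdr45, a WIPI relative, fell (-0.59 ± 0.14 log2, SE, adjusted p = 0.00241), as did Atg16l2 (-0.59 ± 0.13 log2, SE, adjusted p = 0.00108) and Tmem41b, a partner of Vmp1 (-0.23 ± 0.09 log2, SE, adjusted p = 0.035). The Tmem41b call was lost with total counts (-0.12 log2), with no filter on low counts (-0.23) and with DESeq2 (-0.24). Of 10 regulators linked to p53 and stress, 6 rose and 1 fell in MDA-MB-231, where all were tested, and 2 of 5 tested rose and 1 fell in 4T1. TP53INP1, a p53 target that binds LC3, rose in MDA-MB-231 (1.88 ± 0.14 log2, SE, adjusted p = 7.78e-07), as did TRIB3, a pseudokinase of the stress response (1.05 ± 0.09 log2, SE, adjusted p = 2.69e-06), and EVA1A fell (-1.31 ± 0.08 log2, SE, adjusted p = 1.37e-07). Trib3 rose in 4T1 (0.27 ± 0.07 log2, SE, adjusted p = 0.00635), as did Tbc1d5, a regulator of Rab proteins (0.51 ± 0.08 log2, SE, adjusted p = 9.18e-05), and Rab33b fell (-0.43 ± 0.11 log2, SE, adjusted p = 0.00441).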

How the data were processed

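RNA of MDA-MB-231 and 4T1 cells was sequenced in 3 libraries per group. The authors aligned the reads with HISAT2 to hg38 or GRCm39 and counted reads per gene with HTSeq (named in the submitters' processing notes, with no version), and deposited raw counts, which were used as they stand. The library kit does not mark strand, and the strand setting of the counting is not given in the sources used here.

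Each line was fitted on its own in edgeR 4.0.16 (R 4.3.3) with filterByExpr, TMM scaling and the quasi-likelihood test of ponatinib against DMSO. P-values were adjusted by Benjamini-Hochberg over all genes tested and called under 0.05. The difference between the lines was the interaction of line and treatment over genes sharing a symbol. All libraries were scaled together there, so it departs from the gap between the lines' own fold changes. For each member tested in both lines it lay below that gap, which moves values toward the negative side. RPKM used the summed exon length of GENCODE v44 or vM39, which held 81.9% of human and 91.1% of mouse gene identifiers. The steps were tested on simulated data. Members, lists and tests were chosen with earlier results of these data known.

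Values per library were given for up to 5 rises and 5 falls per line with groups that do not overlap and at least 10 CPM, for the modifiers, SQSTM1, BNIP3 and BNIP3L, and for members with opposite calls. From each further list, up to 3 called genes per line with the largest change were named among those with at least 10 CPM in the higher group. The main fits did not pair libraries, and only the replicate block paired those of the same number within a line. Deviations of same-numbered libraries from their group means correlated at 0.111 to 0.345 (MDA-MB-231) and at 0.115 to 0.213 (4T1). Correlations of differently numbered libraries are not reported here, and the labels do not say what the number marks. No libraries of a group agreed within sampling noise (chi-square per gene of 2.98 to 16.2). Alternatives were DESeq2 1.42.0, its size factors, total counts, other filters on low counts, a fold of 1.5 with an unadjusted P under 0.05, the replicate block and leaving out each library. The length of the canonical transcript was added after seeing the data. The summed level of the immune markers is not reported here.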

Additional observations from a re-analysis of the deposited data

Results flagged for a closer look

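The response to ponatinib differed between the lines for 22 members by the test of the interaction of line and treatment (edgeR's quasi-likelihood test, adjusted p under 0.05). Values are the log2 interaction estimates, 4T1 minus MDA-MB-231, from the fit that scales both lines together. They are not a plain subtraction of the lines' own fold changes, and lay below it for each member tested in both lines. PIK3C3, for example, gave -0.01 although its own log2 fold changes were 0.30 in MDA-MB-231 and 0.36 in 4T1. Among the 22, a negative value marks a lower signed fold change in 4T1 and not a smaller one.

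In the initiation and nucleation complexes, the difference was negative for ULK1 (-1.48), ATG13 (-0.71), ATG14 (-0.55) and AMBRA1 (-0.40). Among the PI3P readers and membrane suppliers it was negative for WIPI1 (-0.56), WIPI2 (-0.73), ATG2A (-0.41), ATG2B (-0.72) and ATG9A (-0.47). Of the conjugation enzymes, ATG3 (0.56), ATG4A (0.93), ATG4D (0.53) and ATG10 (1.01) had positive differences, and ATG4B (-0.35) and ATG7 (-0.31) negative ones. ATG7 fell in both lines, and further in 4T1. The difference was positive for MAP1LC3B (0.58) and negative for the other modifiers that differed, GABARAPL1 (-1.40) and GABARAPL2 (-0.79). All 4 receptors that differed had negative values, which were SQSTM1 (-1.12), NBR1 (-0.57), OPTN (-0.97) and CALCOCO1 (-1.32).

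Of these 22 differences, 17 passed under each alternative that tests genes anew. AMBRA1 was lost with total counts (-0.30) and without 4T1 DMSO replicate 1 or 2 or 4T1 ponatinib replicate 2 or 3 (-0.27 to -0.33). ATG2A was lost without 4T1 DMSO replicate 1 (-0.27) or 4T1 ponatinib replicate 2 (-0.31). ATG9A was lost with total counts (-0.36), with DESeq2 (-0.44) and without MDA-MB-231 DMSO replicate 2 or 3, MDA-MB-231 ponatinib replicate 1, 4T1 DMSO replicate 1 or 3 or 4T1 ponatinib replicate 2 or 3 (-0.25 to -0.44). ATG4B was lost with total counts (-0.25) and without any 1 of the 4T1 libraries, MDA-MB-231 DMSO replicate 2 or 3 or MDA-MB-231 ponatinib replicate 1 (-0.26 to -0.31). ATG7 was also lost with DESeq2 size factors (-0.29), total counts (-0.21) and no filter on low counts (-0.31).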

How the results depend on the processing

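Of 42 called member values, 25 kept their call under the 12 alternatives that test each gene anew, 17 lost it under at least 1, and none changed sign. Of 35 values not called, 13 gained a call under at least 1. The fold rule is counted apart from these. By a fold of 1.5 with an unadjusted P under 0.05, 4 members rose and 1 fell in MDA-MB-231, and 1 rose and 3 fell in 4T1. Total counts left 3 falling members and 7 falling pathway genes for MDA-MB-231, with 9 and 13 for 4T1, and moved the members' median log2 fold change to 0.13 and -0.012. In MDA-MB-231, at least 10 counts in every library gave 3 falls and a median of 0.063, no filter a median of -0.0056 and DESeq2 one of 0.0025. The replicate block, which pairs libraries of the same number, gave 11 falls in MDA-MB-231, 12 opposite members and 24 differences between the lines, and lost no call of a member. It also raised the calls over all genes, to 4802 rises and 4873 falls in MDA-MB-231 and 4310 of each in 4T1.

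Leaving out 1 library at a time gave 10 to 13 rises, 3 to 5 falls and a median of 0.035 to 0.079 in MDA-MB-231, and 5 to 8 rises, 10 to 14 falls and a median of -0.14 to -0.038 in 4T1. It gave 26 to 33 rises and 10 to 12 falls among pathway genes for the human line, and 16 to 18 rises and 14 to 23 falls in 4T1. It gave 5 to 8 opposite members and 17 to 21 differences between the lines.

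Changes of sign occurred only among 11 of the 35 member values that were not called. These were, in MDA-MB-231, PIK3R4 (-0.01 with no filter, -0.10 to 0.09 without 1 library), WIPI2 (0.0019 with total counts) and ATG4B (-0.01 with no filter, -0.07 to 0.09 without 1 library). In 4T1 they were Atg14 (0.07 with total counts), Atg4c (0.11 with total counts, 0.01 with at least 10 counts) and Optn (-0.0041 with DESeq2, -0.0025 with its size factors). Over the fits without 1 library, 4T1 values ran from -0.11 to 0.01 for Atg14, -0.15 to 0.13 for Atg4c, -0.01 to 0.02 for Optn, -0.03 to 0.11 for Atg101, -0.04 to 0.11 for Atg2a, -0.01 to 0.17 for Atg5, -0.01 to 0.05 for Calcoco1 and -0.02 to 0.12 for Tax1bp1. The cause of these moves was not tested.

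With 3 libraries per group, small changes lay near the threshold, and at 0 to 4 counts per library MAP1LC3A allowed no test within MDA-MB-231.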
